A study of Rattus norvegicus with 14 samples.

Results

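The 6 sarcomeric myosin heavy chain genes Myh7, Myh2, Myh1, Myh4, Myh3 and Myh8 were followed in rat soleus after tenotomy. Their members were all probe sets (groups of short probes read as 1 signal) whose only gene symbol was one of these 6, which gave 11 of the 31099 probe sets on the array. Myh1 had 5 probe sets, Myh7 had 2, and Myh2, Myh4, Myh3 and Myh8 had 1 each. All 11 passed the filter on low signal. A further 3 probe sets carried a member's symbol together with another gene's and were not counted as members.

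Soleus is a postural muscle of the calf, and in tenotomy its tendon is cut, which unloads the muscle. The labels do not give the load that these muscles bore in any week. The rats were Sprague Dawley males, and 12 of them gave 14 whole soleus muscles, each hybridized to 1 array. By the labels there were 4 control muscles, all left. The 6 short-term muscles were tenotomized for 1 week (2), 2 weeks (2), 3 weeks (1) and 4 weeks (1). The 4 long-term muscles were tenotomized for 6 weeks (2), 16 weeks (1) and 22 weeks (1), and all tenotomized muscles were right. The sample group labels call them short-term immobilized and long-term immobilized, while tenotomy and its weeks come from the titles. All rats had free access to food and water and a day and night cycle of light. Rats 61 and 62 each gave a left control muscle and a right muscle at 6 weeks, so a control could be the other leg of an operated animal. No rat gave both a control and a short-term array, and the labels give no age, so cohort and tenotomy cannot be told apart in short-term against control. Side and tenotomy cannot be told apart in either comparison with control, since every control was a left muscle and every tenotomized one a right muscle. The long-term and short-term arrays are all of right tenotomized muscles and differ in both cohort and time.

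Myosin heavy chain is the motor protein of the thick filament, and the isoform a fibre carries largely sets how fast it shortens. Myh7 encodes the slow (type I, also cardiac beta) chain, while Myh2, Myh1 and Myh4 encode the adult fast chains of type IIA, IIX and IIB fibres. Myh3 and Myh8 encode the embryonic and the perinatal chain, which are made in developing and regenerating fibres. In adult rat soleus the slow chain prevails, with some IIA fibres.

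Per the RefSeq annotation (GRCr8 assembly), Myh3, Myh2, Myh1, Myh4 and Myh8 lie in this order within 223 kb on chromosome 10 (52269185 to 52492105), and Myh7 lies on chromosome 15 (32416525 to 32439851). The sequences before the starts of the 3 adult fast genes are shown because probe sets annotated to these neighbours gave different profiles over the arrays. Each line gives bases 250 to 111 before the start in RefSeq's promoter table, read 5′ to 3′ on the plus strand of RefSeq's GRCr8. They cover chr10:52355489-52355628 for Myh2, chr10:52384662-52384801 for Myh1 and chr10:52421898-52422037 for Myh4. Capitals mark the 20-base run that all 3 share.
Myh2: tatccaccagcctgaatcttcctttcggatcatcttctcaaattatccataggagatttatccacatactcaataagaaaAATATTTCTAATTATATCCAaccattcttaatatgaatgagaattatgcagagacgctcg
Myh1: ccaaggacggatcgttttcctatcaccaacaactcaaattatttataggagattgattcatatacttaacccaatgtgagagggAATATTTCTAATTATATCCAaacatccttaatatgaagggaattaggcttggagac
Myh4: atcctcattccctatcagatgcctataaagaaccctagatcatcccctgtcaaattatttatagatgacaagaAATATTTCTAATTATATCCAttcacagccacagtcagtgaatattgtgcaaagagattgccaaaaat
The run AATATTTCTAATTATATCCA starts 170, 166 and 177 bases before these starts of Myh2, Myh1 and Myh4. For Myh1 the start of the promoter table (52384912) lies 102 bases downstream of the first base of the annotated gene (52384810), from which the run starts 64 bases upstream, and for Myh2 and Myh4 the starts are the same. Searched on both strands, it stood in 5 of 33469 RefSeq promoter windows (0.0149%). Besides those of the 3 fast genes, these were 2 windows of LOC102555216, a gene on the opposite strand whose windows cover the same bases as that of Myh4. The windows of Myh7, Myh3 and Myh8 do not hold it. The run is a match of letters and was not tested as a binding site.

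The deposited values were MAS5 signal intensities, and every value below is a scaled signal, that is the deposited signal after each array was shifted to a common median of 39.2. An array gives no count of reads, so precision is limited by how many arrays there were. Signals of different probe sets depend on their probes, so levels are compared between arrays and not between genes. In whole muscle, fewer cells of a type and less RNA per cell cannot be told apart. The groups were compared with limma over 20317 probe sets, with adjusted p-values by Benjamini-Hochberg over all of them. After scaling and filtering, the median log2 change of the probe sets tested was -0.31 in short-term against control, 0.03 in long-term against control and 0.34 in long-term against short-term. Each log2 change is therefore given relative to that median, while its p-value tests the scaled change before the subtraction. The labels do not say how samples were drawn beyond the rat numbers, so p-values measure the spread between these muscles.

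The short-term arrays also differed from the controls in measures other than myosin. In short-term against control 11.6% of all probe sets were called higher and 33.9% lower. Macrophage markers were called higher for 9 of 10 tested genes, with a summed signal of 4324 to 9265 against 1697 to 3234 in controls and 1685 to 3260 in long-term muscle. Fibroblast markers were called higher for 8 of 9, with sums of 28499 to 54982 against 9607 to 16068 and 4693 to 16670. Of 6 satellite cell markers 4 were on the array, with Pax7 and Myf5 missing, and 3 were tested. All 3 were called lower. Sums over the 4 were 157 to 227 against 264 to 362 in controls and 217 to 365 in long-term muscle. The sum over 8 defining skeletal muscle markers was 43765 to 62394 in short-term, 52079 to 70008 in control and 58404 to 80044 in long-term muscle, with none called higher and 2 called lower in short-term. The poly-A spike-in signal was 170 to 482 in short-term against 93.7 to 150 in controls, and the 3′ to 5′ ratio of Gapdh probe sets was 1.16 to 1.61 against 1.38 to 2.78. The same ratio of actin ran the other way, with 1.97 to 3.87 in short-term against 1.47 to 2.37 in control and 1.39 to 3.74 in long-term muscle. The part of these differences in the myosin results was not tested. Of the 4 heart markers on the array 2 were tested, with 0 called higher and 1, Myh6, lower in short-term muscle. Sums over the 4 were 90.5 to 157 in short-term, 137 to 225 in control and 157 to 386 in long-term muscle. The natriuretic peptide genes Nppa and Nppb lay below the filter signal of 22.0 on all control and short-term arrays. Only Nppb did so on all long-term arrays.

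Myosin heavy chain probe sets split after 1 to 4 weeks of tenotomy. Of the 5 annotated to the IIX chain 4 fell, and the IIB, embryonic and perinatal probe sets rose. The slow chain did not pass the test in either direction. The 4 that fell correlated with each other at 0.96 or above and are not independent measures. Of the 11 member probe sets 7 were called, 3 higher (Myh4, Myh3 and Myh8) and 4 lower (all Myh1). Over all probe sets 45.4% were called in this comparison, 11.6% higher and 33.9% lower, so calls were common among all genes. The median relative change of the 11 was 0.07. Groups did not overlap for 5 members (4 Myh1 lower, Myh8 higher), against 30.7% of all probe sets, 5.94% in the higher and 24.7% in the lower direction. Of these, Myh8 lay below the filter signal on every control array and passed the filter only through tenotomized muscle.

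**Figure D1:**
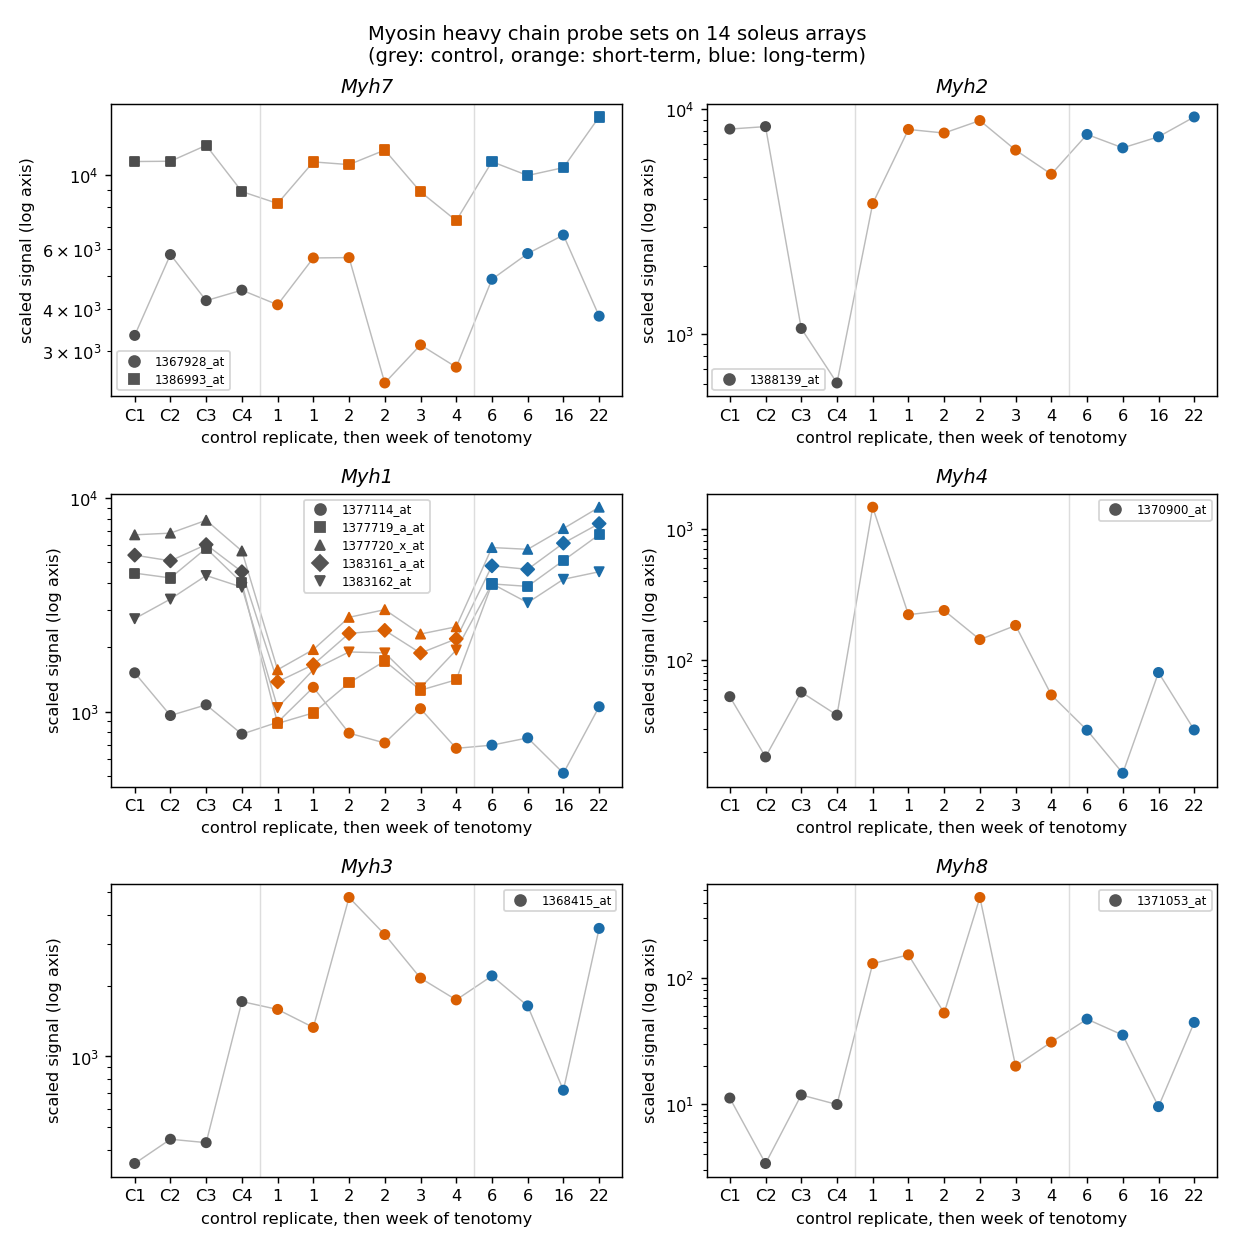
Scaled signal (log axis) of each myosin heavy chain probe set on the 14 arrays, 1 panel per gene, with control replicates C1 to C4 first and then the week of tenotomy. Grey, orange and blue points are control, short-term and long-term arrays and thin lines join the arrays of 1 probe set. The 4 upper Myh1 probe sets are low at 1 to 4 weeks, Myh4 peaks at 1459 at 1 week, and Myh2 is low on 2 of the 4 control arrays.

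The slow chain Myh7 was among the brightest probe sets throughout. Its probe set 1386993_at ranked between 2 and 9 of all probe sets on every array. Its scaled signal was 10926, 10948, 12200 and 8901 in controls. Short-term values had a lowest of 7299, a median of 9793 and a highest of 11813, and long-term values were 10914, 9933, 10481 and 14811. All 3 groups overlapped. The relative log2 change was 0.14 (SE 0.16) for short-term against control (adjusted p = 0.401), 0.06 (SE 0.17) for long-term against control (adjusted p = 1) and -0.08 (SE 0.16) for long-term against short-term (adjusted p = 0.186). A p above the threshold does not show that the level was equal. The highest deposited signal on any array was 12542, and saturation of bright probe sets was not tested. The second Myh7 probe set, 1367928_at, was dimmer (2411 to 6616 over all arrays) and also passed no test, with relative changes of 0.07, 0.21 and 0.13 in the same 3 comparisons. The 2 Myh7 probe sets followed each other weakly, with a Pearson r of 0.16 over the 14 arrays that share scaling.

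Myh2, the IIA chain, stood at 2 levels among the controls. Its signal was 8177, 8387, 1058 and 605 in control replicates 1 to 4. The 6 short-term values ran from 3807 through a median of 7221 to 8924, and the long-term values were 7738, 6744, 7556 and 9258. Controls 1 and 2 lay within the range of tenotomized muscle, and controls 3 and 4 (the latter from rat 61) lay below every tenotomized array. The relative change was 1.64 (SE 0.57) in short-term against control, with an adjusted p of 0.0669, and 1.57 (SE 0.63) in long-term against control, with an adjusted p of 1. Under the 4 other array scalings the short-term change passed the threshold (adjusted p from 0.034 to 0.0461). The change also depended on single controls, being 2.18 (adjusted p = 0.0148) without control 1, 2.24 (0.0121) without control 2, 1.21 without control 3 and 0.94 without control 4. Without controls 3 and 4 together it was -0.06 in short-term and -0.13 in long-term muscle.

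The 5 genes whose lead probe sets were most like Myh2 across the 14 arrays, out of 11055 genes, were Tpm1 (r = 0.98), Tnnc2 (0.98), Tnni2 (0.97), Tnnt3 (0.96) and Mylpf (0.89). Tnnc2, Tnni2 and Tnnt3 encode the subunits of fast troponin, Tpm1 encodes alpha-tropomyosin and Mylpf the fast regulatory light chain. Tnni2 read 5562, 6111, 403 and 147 in control replicates 1 to 4, against 2694 to 4991 in short-term and 3308 to 4432 in long-term muscle. Tnnt3 read 5490, 5844, 440 and 164 in the same controls, and Tpm1 read 6580, 6252, 947 and 880. Controls 3 and 4 were low for each of these genes, as they were for Myh2. The genes were picked for their likeness to Myh2, so a shared split of the controls follows from the choice. These correlations share the arrays and their scaling, and are given as a description.

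**Figure D2:**
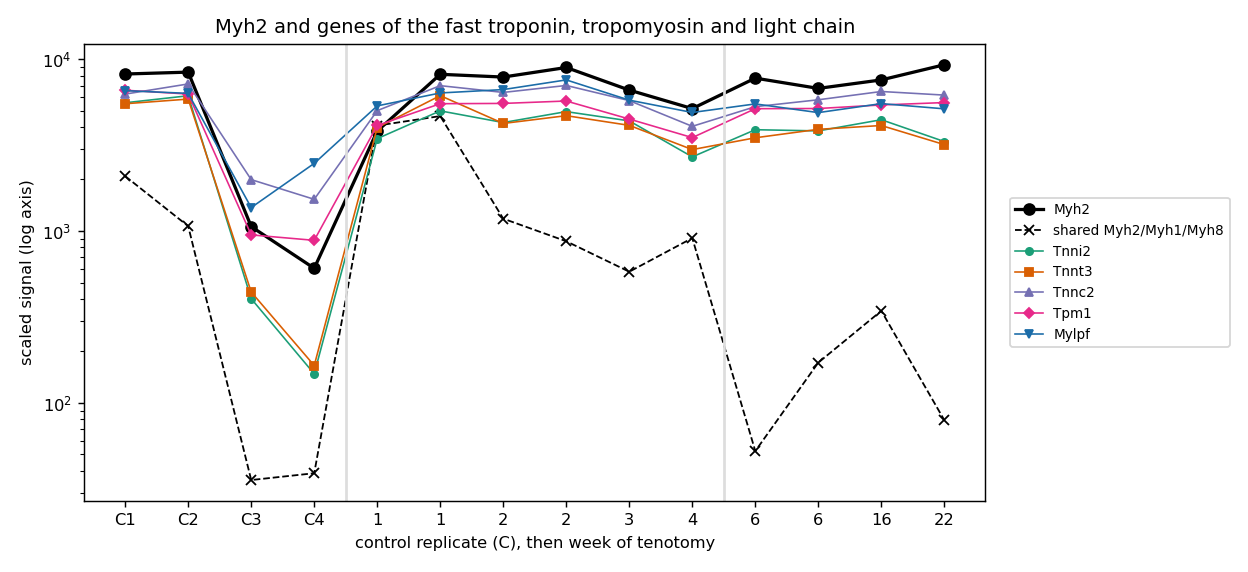
Scaled signal (log axis) of Myh2, of the probe set shared by Myh2, Myh1 and Myh8, and of Tnni2, Tnnt3, Tnnc2, Tpm1 and Mylpf on the 14 arrays, with control replicates C1 to C4 first and then the week of tenotomy. Control replicates 3 and 4 are low for every line, and the shared probe set (dashed) falls again from 6 weeks on while Myh2 does not.

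The probe set 1370971_at, whose annotation names Myh2, Myh1 and Myh8 together, gave another profile. It read 2080, 1065, 35.5 and 38.8 in controls, 578 to 4653 in short-term muscle with a median of 1042, and 52.3, 171, 342 and 79.1 in long-term muscle. Every long-term value lay below every short-term value. The relative change was 2.96 (SE 1.01, adjusted p = 0.0419) for short-term against control and -3.90 (SE 1.01, adjusted p = 0.00916) for long-term against short-term. Myosin heavy chains are a family of closely similar genes and the probes' sequences were not used here, so how probe sets divide the signal among family members is uncertain. Mybpc2, which encodes the fast myosin-binding protein C of the thick filament, read 1065, 452, 36.6 and 23.7 in controls, 246 to 500 in short-term and 35.4 to 82.1 in long-term muscle. Its fall from short-term to long-term muscle was -3.18 (SE 0.77, adjusted p = 0.00675).

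Of the 5 probe sets annotated to Myh1, the IIX chain, 4 fell in short-term muscle. The brightest, 1377720_x_at, read 6718, 6843, 7859 and 5646 in controls. It read 1569 and 1951 at 1 week, 2761 and 3000 at 2 weeks, 2306 at 3 weeks and 2494 at 4 weeks. At 6 weeks it read 5859 and 5748, at 16 weeks 7188 and at 22 weeks 9049. All short-term arrays lay below all control and long-term arrays, and the control and long-term ranges overlapped. The relative change was -1.24 (SE 0.18, adjusted p = 2.18e-05) for short-term against control, a 2.36-fold lower signal. Its profile differed from those of Myh2 and of 1370971_at, whose annotation also names Myh1. Controls 3 and 4 were low for both of those but read 7859 and 5646 here. From short-term to long-term muscle this probe set rose by 1.23, whereas 1370971_at changed by -3.90. Which transcripts the 4 probe sets measure was not tested.

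The probe sets 1377719_a_at, 1383161_a_at and 1383162_at moved alike. Their relative changes in short-term muscle were -1.57 (SE 0.20, adjusted p = 1e-05), -1.13 (SE 0.18, adjusted p = 2.93e-05) and -0.85 (SE 0.19, adjusted p = 1.82e-04). None of the 3 overlapped between short-term and control arrays. The same 4 rose from short-term to long-term muscle by 1.61, 1.23, 1.21 and 0.99 for 1377719_a_at, 1377720_x_at, 1383161_a_at and 1383162_at, with adjusted p-values from 1.56e-05 to 7.81e-05. Against controls, the long-term changes of these 4 lay between -0.0036 and 0.14 with SEs of 0.20 to 0.22, and each had an adjusted p of 1. The fifth probe set, 1377114_at, went its own way, with 784 to 1519 in control, 673 to 1299 in short-term and 514 to 1053 in long-term muscle. Its relative change was 0.05 (SE 0.23, adjusted p = 0.354) in short-term against control and -0.61 (SE 0.23, adjusted p = 0.354) in long-term against short-term. In the latter it was called lower, opposite to the other 4, under 3 other scalings: a common 75th percentile (adjusted p = 0.048), quantile normalization (-0.89, adjusted p = 0.00571) and a trimmed mean (adjusted p = 0.013). The 4 concordant probe sets correlated with each other at 0.96 or above over the 14 arrays, and 1377114_at correlated with them at -0.18 to -0.02. The 5 probe sets derive from 3 sequence records, 2 of which gave 2 probe sets each, so they are not independent measures.

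Myh4, the IIB chain that rat soleus normally makes little of, was dim in control and bright early after tenotomy. Its signal was 52.7, 18.3, 57.1 and 38.1 in controls. At 1 week it was 1459 in rat 12 and 222 in rat 13, at 2 weeks 239 and 143, at 3 weeks 184 and at 4 weeks 54.3. Long-term values were 29.3 and 13.8 at 6 weeks, 80.5 at 16 weeks and 29.4 at 22 weeks. The first 5 short-term arrays lay above every other array, and the 4-week array lay within the control range. The relative change was 2.83 (SE 0.66, adjusted p = 0.00581) in short-term against control, and 2.29 (adjusted p = 0.00555) without the 1-week array of rat 12. From short-term to long-term muscle it was -3.15 (SE 0.66, adjusted p = 0.00286), and against controls the long-term change was -0.31 (SE 0.73, adjusted p = 1).

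Myh3, the embryonic chain, was higher in tenotomized muscle than in 3 of the 4 controls. Control values were 351, 445, 431 and 1711, and the last, from rat 61, lay within the range of short-term muscle. Short-term values were 1584 and 1329 at 1 week, 4735 and 3295 at 2 weeks, 2152 at 3 weeks and 1739 at 4 weeks. Long-term values were 2199 and 1640 at 6 weeks, 719 at 16 weeks and 3499 at 22 weeks. The highest value stood at 2 weeks, and without the rat 61 control every tenotomized array lay above every control. The rat 61 control was singled out from these same values, so this separation follows in part from the choice. The relative change in short-term muscle was 2.25 (SE 0.47, adjusted p = 0.00347), and 2.76 (adjusted p = 5.61e-04) without that control. For long-term against control it was 1.55 (SE 0.51) with an adjusted p of 1, and for long-term against short-term -0.70 (SE 0.47, adjusted p = 0.547).

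Myh8, the perinatal chain, was near the floor set for low signals in controls, with 11.1, 3.36, 11.8 and 9.91, all below the filter signal of 22.0 and 1 below the floor of 9.71. It exceeded the filter signal on 5 short-term, 3 long-term and 0 control arrays, so it passed the filter only through tenotomized muscle. It was 131 and 154 at 1 week, 52.9 and 439 at 2 weeks, 20.0 at 3 weeks and 31.0 at 4 weeks. Long-term muscle had 47.3 and 35.3 at 6 weeks, 9.53 at 16 weeks and 44.5 at 22 weeks. All short-term values lay above all control values, and the 2 arrays at 2 weeks differed most from each other. The relative change in short-term muscle was 3.25 (SE 0.67, adjusted p = 0.00243). Because the controls lay near the floor, its size depends on how low signals are treated, and it was 2.33 with 16 added to each signal. With no filter on any probe set it was 3.04 (adjusted p = 0.0151). The changes of 1.43 (SE 0.74, adjusted p = 1) in long-term against control and -1.82 (SE 0.67, adjusted p = 0.0807) in long-term against short-term did not pass. The latter passed on the deposited scale (adjusted p = 0.0444), with a common trimmed mean (adjusted p = 0.0482), without short-term replicate 5 (-2.24, adjusted p = 0.0196) and without short-term replicate 6 (-2.09, adjusted p = 0.046). The satellite cell markers tested, which did not include Pax7 or Myf5, were called lower in short-term muscle. Satellite cells take part in making such fibres, and their part in the Myh3 and Myh8 results was not tested.

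**Figure D3:**
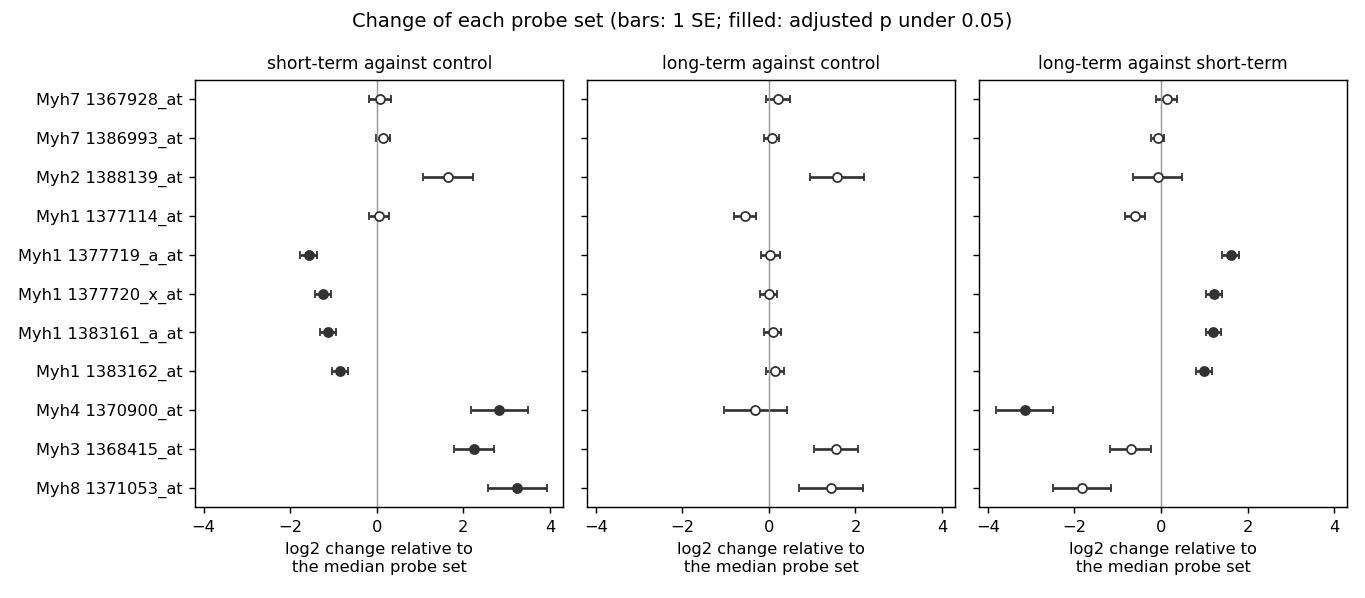
Log2 change of each of the 11 probe sets relative to the median of all probe sets tested, with bars of 1 SE, in the 3 group comparisons. Filled points have an adjusted p under 0.05: 7 in short-term against control, 0 in long-term against control and 5 in long-term against short-term.

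Long-term muscle was not separated from control for any member. None of the 11 was called, and over all probe sets 0% were called, with a lowest adjusted p of 0.096 in limma. Before adjustment 429 probe sets (2.11%) lay under the threshold in limma, 3 of them members (Myh3, Myh2 and Myh1 1377114_at). None of the 11 was free of overlap between these groups, against 1.77% of all probe sets. The median relative change of the 11 was 0.09.

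Between long-term and short-term muscle 5 of the 11 were called, with 4 Myh1 probe sets higher and Myh4 lower. The share called over all probe sets was 46.9%, 36.2% higher and 10.7% lower. Of the 11, the 4 called Myh1 probe sets did not overlap between these groups, against 30% of all probe sets (25.1% higher, 4.88% lower), whereas Myh4 overlapped through 54.3 at 4 weeks and 80.5 at 16 weeks. The median relative change of the 11 was -0.08. This comparison and the first share the short-term arrays, so they are not independent.

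A slope on log2 of the week over the 10 tenotomized arrays was called for 6 of the 11. Over all probe sets it was called for 27.6%, 22.3% with a rising and 5.27% with a falling slope. The slope uses the same arrays as long-term against short-term, so the 2 are not independent. A trend over weeks and a step between these groups were not told apart. The 4 concordant Myh1 probe sets rose by 0.33 to 0.55 per unit of log2 week, relative to the median slope of 0.11, with adjusted p-values from 0.00218 to 0.00474. The slope of 1377114_at was -0.21 (adjusted p = 0.328), and was called falling with quantile normalization (-0.30, adjusted p = 0.0272) and a trimmed mean (-0.21, adjusted p = 0.0346). Myh4 had a relative slope of -1.06 (SE 0.24, adjusted p = 0.0173) and Myh8 one of -0.78 (SE 0.22, adjusted p = 0.0418). The Myh4 slope lost its call under 2 of 19 alternatives, among them the fit without the 22-week array (adjusted p = 0.0789), and the Myh8 slope lost it under 9 of 19. Weeks 3, 4, 16 and 22 hold 1 array each, so their place on a slope has no replicate.

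Ratios of 2 probe sets on the same array do not depend on the scaling of that array, and show unequal change. Each gene stands here by its lead probe set, 1377720_x_at for Myh1 and 1386993_at for Myh7. Ratios with other probe sets were not computed, among them Myh1 1377114_at, whose relative change in short-term muscle was 0.05. The 2 Myh7 probe sets correlated at only 0.16. With the control median set to 0, log2 of Myh1 over Myh7 was -0.03 to 0.03 in controls. It was -1.81 to -0.88 in short-term and -0.23 to 0.12 in long-term muscle. For Myh8 over Myh7 the ranges were -0.16 to 0.16, 1.18 to 5.23 and -0.10 to 2.13, but Myh8 lay near the floor in controls and replicate 2 was raised to it, so the narrow control range depends on the floor. Myh4 over Myh1 spanned -1.39 to 0.16 in controls, 1.64 to 7.05 in short-term and -1.55 to 0.68 in long-term muscle. In these 3 ratios short-term arrays lay apart from the controls. This restates the changes of Myh1, Myh4 and Myh8 given above and is not a further result. The share of ratios between other probe sets that lie apart was not computed. Myh8 passed the filter only through tenotomized muscle, and Myh8 over Myh7 overlapped between short-term and long-term muscle. Myh3 over Myh7 spanned -0.24 to 2.34 in controls and 1.69 to 3.55 in short-term muscle, and overlapped through the rat 61 control. Myh2 over Myh7 was -1.91 to 1.59 in controls, with medians of 1.53 in short-term and 1.45 in long-term muscle.

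**Figure D4:**
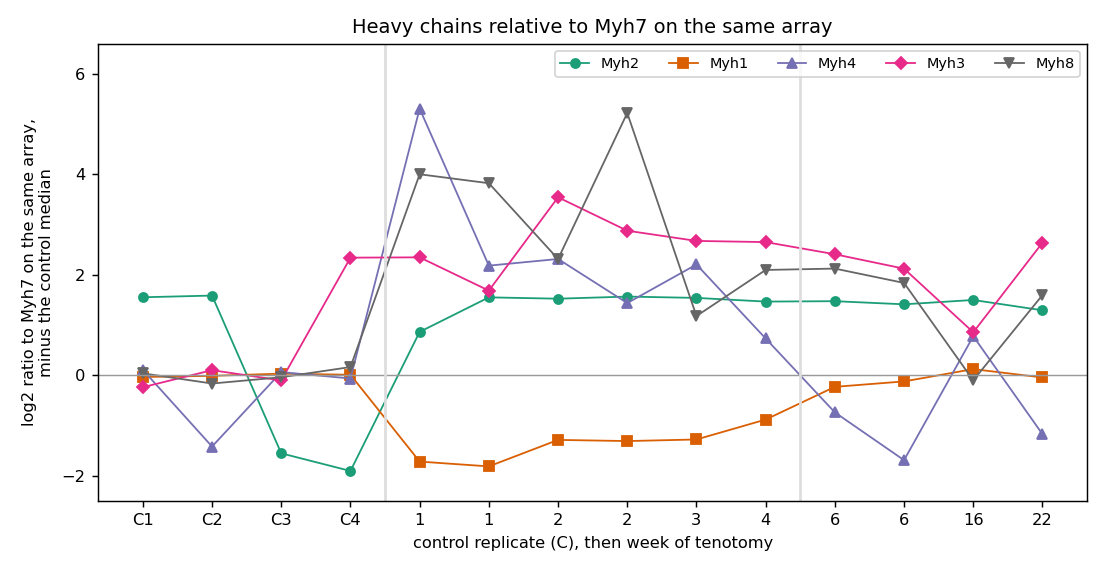
Log2 ratio of each heavy chain's lead probe set to that of Myh7 on the same array, minus the median of the 4 controls, for control replicates C1 to C4 and then by week of tenotomy. Myh1 lies between -1.81 and -0.88 in short-term muscle, and the Myh2 line is low on control replicates 3 and 4.

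The 2 rats that gave both legs allowed a comparison within an animal at 6 weeks, with no test. In rat 61 Myh2 was 605 in the left control and 7738 in the right tenotomized muscle, a log2 difference of 3.68, while in rat 62 it was 8177 and 6744, a difference of -0.28. The 2 animals thus went opposite ways for Myh2. Myh3 was 1711 and 2199 in rat 61 and 351 and 1640 in rat 62, and so was higher on the right in both. Myh8 was also higher on the right in both, with 9.91 and 47.3 in rat 61 and 11.1 and 35.3 in rat 62. Myh4 was lower on the right in both, with 38.1 and 29.3 in rat 61 and 52.7 and 13.8 in rat 62. Myh1 1377720_x_at differed by 0.05 in rat 61 and -0.23 in rat 62. The shared probe set 1370971_at was 38.8 and 52.3 in rat 61, and 2080 and 171 in rat 62.

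Contractile partners of slow fibres (light chains, troponins and calcium handling of type I fibres) had 0 of 10 tested genes called higher and 5 lower in short-term against control, where 11.6% of all probe sets were called higher and 33.9% lower. They had a median relative change of -0.03, and 1 of these calls, Casq2, held under all 5 scalings. Without controls 3 and 4 there was 1 call, lower. Casq2, the slow and cardiac calsequestrin, changed by -0.92 (SE 0.20, adjusted p = 2.26e-04). Myl2 and Myl3, the slow light chains, had relative changes of 0.03 (adjusted p = 0.163) and -0.0018 (adjusted p = 0.0992). In long-term against short-term muscle 8 of the 10 were called higher and 0 lower, where 36.2% of all probe sets were called higher and 10.7% lower. The number called higher was 7 on the deposited scale, 4 with quantile normalization and 1 with a common 75th percentile or trimmed mean. These shares of all probe sets are the background for the lists that follow too.

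Of 12 fast fibre partners 2 were called higher and 1 lower in short-term muscle, with a median relative change of 1.20. Actn3, the alpha-actinin of fast fibres, rose by 1.98 (SE 0.54, adjusted p = 0.0189) and Pvalb, the calcium buffer parvalbumin, by 1.51 (SE 0.46, adjusted p = 0.0424), while Casq1 was called lower at a relative change of -0.08 (SE 0.14, adjusted p = 0.0359). The number called higher was 5 with a common 75th percentile, 6 with quantile normalization, 7 with a trimmed mean and 5 on the deposited scale. Only the Actn3 call held under all 5 scalings, and no fast partner was called without controls 3 and 4. Without them most of the 12 changes were negative, among them Tnni2 (-0.24), Tnnt3 (-0.12) and Mybpc2 (-0.64). The others were positive, among them Actn3 (1.57) and Pvalb (1.65), so the median of 1.20 depended on controls 3 and 4. Mylpf changed by 1.12 (SE 0.32, adjusted p = 0.0509) and Myl1, the fast essential light chain, by 0.19 (SE 0.15, adjusted p = 0.538). In long-term against short-term muscle 1 of the 12 was called higher and 3 lower (Mybpc2, Actn3 at -2.17 and Pvalb at -1.85).

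Developmental partners had 2 of 7 called higher in short-term muscle and none lower, with a median of 1.05. Mymk, the membrane protein myomaker that myoblasts need to fuse, rose by 1.86 (SE 0.40, adjusted p = 0.00527), and Myl4, the embryonic and atrial light chain, by 1.85 (SE 0.38, adjusted p = 0.00397). Mymk values were 19.7, 12.5, 8.75 and 18.8 in controls against 24.0 to 127 in short-term muscle. All controls lay below the filter signal of 22.0, so Mymk passed the filter only through tenotomized muscle. Its groups did not overlap, as was so in the higher direction for 5.94% of all probe sets. Both calls held under all 5 scalings, and without controls 3 and 4 the changes were 1.74 (adjusted p = 0.0522) and 1.59 (adjusted p = 0.0679). Tnnt2, the cardiac and embryonic troponin T, changed by 2.64 (SE 0.94, adjusted p = 0.0519), and by 3.97 (adjusted p = 0.00958) without controls 3 and 4.

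Among regulators of fibre type 1 of 12 was called higher and 8 lower in short-term muscle, with a median of -0.41. Hdac4, a class II deacetylase that binds MEF2 factors, rose by 1.98 (SE 0.40, adjusted p = 0.00319). Ppargc1a, the coactivator of oxidative metabolism, fell by 2.01 (SE 0.44, adjusted p = 6.1e-04), and Eya1, a transcriptional coactivator in muscle, fell by 1.39 (SE 0.22, adjusted p = 4.13e-05). These 3 were among 6 calls in the list, 1 higher and 5 lower, that held under all 5 scalings. Six4 changed by -0.27 (SE 0.26, adjusted p = 0.0788). In long-term against short-term muscle 8 of the 12 were called higher and 1, Hdac4, lower at -1.76.

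Genes for thick filament assembly and myosin folding had 0 of 7 called higher and 6 lower in short-term muscle, with a median of -0.57, and 2 of these calls held under all 5 scalings. Without controls 3 and 4 there were 3 calls, all lower. Smyd1, a methyltransferase needed for myosin assembly, changed by -0.73 (SE 0.20, adjusted p = 7.37e-04), and Myom2, an M-band protein, by -0.75 (SE 0.22, adjusted p = 0.00123). Unc45b, the myosin chaperone, was called lower at -0.34 (SE 0.22, adjusted p = 0.0262). In long-term against control muscle no gene of these 5 lists was called. Without controls 3 and 4 Mybpc2 was called lower there at -3.81 (adjusted p = 9.70e-04), against a change of -1.52 (adjusted p = 1) with all controls.

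The genes most like each of the other members across the 14 arrays were of several kinds. Myh7 was followed by Myl1 (r = 0.99), Tpm2, Tnni1, Fhl1 and COX1 (0.98 each), all of them bright muscle genes with group medians of 6760 to 9623. The deposited signal of Myh7 1386993_at ran from 9174 to 11717 and the scaled signal from 7299 to 14811, so scaling widened its spread. All probe sets of an array share that scaling, and its part in these r values was not tested. Myh1 1377720_x_at was followed by Pkp2, Mlf2, Gata2, Ptges2 and Lmo4, with r between 0.97 and 0.98. Pkp2, a desmosomal plakophilin, had group medians of 142 in control, 29.0 in short-term and 127 in long-term muscle. These genes were low on the short-term arrays, as were 24.7% of all probe sets without overlap with control.

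Myh4 was most like Ifgga2l1 (r = 0.95), Isg15 (0.93), Rig1 (0.89), Gbp4 (0.89) and Irf8 (0.87). Isg15 is a ubiquitin-like protein that interferon induces. All 5 had their highest signal on the 1-week array of rat 12, the array with the highest Myh4, and Isg15 reached 1121 there against a control median of 77.0. Without that array the r fell to between 0.78 and 0.91.

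Myh3 was most like Mybph (r = 0.88), Sln (0.85), Arhgap18 (0.84), Inka1 (0.83) and App (0.82). Mybph encodes myosin-binding protein H and had medians of 135 in control, 819 in short-term and 446 in long-term muscle. Sln encodes sarcolipin, an inhibitor of the sarcoplasmic calcium pump, with medians of 1902, 5447 and 4920. Myh8 was most like Pabpn1 (r = 0.89), Myl4 (0.88), Pilrb2l4 (0.84), a probe set annotated with the symbol Mir23b (0.84) and Stat6 (0.84). Myl4 had medians of 174 in control, 543 in short-term and 275 in long-term muscle. Like those of Myh2, these correlations are descriptions.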

How the data were processed

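The authors deposited 1 table of linear probe set intensity values, computed with MAS5 per the submitters' processing notes. The scaling target and detection calls are not given in the sources used here. Probe sets were named by the platform annotation of 2016 (20826 with 1 symbol, 436 with several, 9780 with none, and 57 manufacturer's controls), of which 20758 single-symbol probe sets had a gene ID in RefSeq's GRCr8 table. Genome positions and promoter windows are RefSeq's.

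Deposited array medians ran from 29.8 to 49.3, a span of 0.73 on the log2 scale and above the limit of 0.2, so each array was shifted to a common median. Signals below the 25th percentile (9.71) were raised to it after scaling, and log2 taken. Probe sets above the 40th percentile (22.0) on at least 4 arrays were fitted, 20317 in all, with limma 3.58.1 in R 4.3.3 (1 mean per group, intensity trend, all 14 arrays, Benjamini-Hochberg, threshold 0.05). The limma fit of short-term against control was tested on simulated data with planted changes. The scaling, floor, filter, other comparisons and slope were not tested in this way. The slope used the 10 tenotomized arrays. Signals printed are before the floor. The lead probe set of a gene had the highest mean log2 signal. Likeness is Pearson's r over 14 arrays.

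Named genes were all member probe sets, the 5 genes most like each member, and per partner list and comparison at most 4 genes (the largest called changes and the first 2 of the list). Members and lists were chosen with earlier results of these data known. Arrays of the same rat deviated together from their group means with correlations of 0.41 (rat 61) and 0.11 (rat 62), against -0.25 to 0.26 for arrays of different rats, a range that holds the value of rat 62, the pairing coming from the rat number in the titles.

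Alternatives were 4 other scalings, no floor, 16 added before log2, no filter, no intensity trend, lead probe sets alone, leaving out each array, leaving out control replicates 3 and 4 together, and the rat as a block. No 2 arrays were identical.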

Additional observations from a re-analysis of the deposited data

Results flagged for a closer look

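Among 33 groups of arrays examined, 1 group for each member probe set and condition, 2 held an array far from the others of its group on the log2 scale. Chance gives about 1 in 20 such groups. The first was Myh3 in control replicate 4 (rat 61, left muscle), with a scaled signal of 1711 against 351 to 445 in the other controls, a gap of 0.85 of the group's range. The second was Myh8 in control replicate 2, with 3.36 against 9.91 to 11.8, a gap of 0.86 of the range among signals near or below the floor.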

How the results depend on the processing

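All 12 calls of member probe sets between groups kept their direction and side of the threshold under each of up to 25 alternatives, and 16 of 18 did when slopes were included. With the rat as a replicate block (correlation 0.12) 9356, 0 and 9514 probe sets and 7, 0 and 5 members were called in short-term against control, long-term against control and long-term against short-term, and no member's call changed. With 1 lead probe set per gene, the members called were 4 (short-term against control), 2 (long-term against short-term) and 3 (slope), since fewer members are fitted, and all calls were 5744 and 6025. All calls were 6067 (long-term against short-term, deposited scale), 5110 (short-term against control without controls 3 and 4), and in long-term against control 5 with no filter and 1 without controls 3 and 4. Slopes called were 2317 (deposited scale), 2763 (75th percentile), 1725 (quantile), 2548 (trimmed mean), 3699 (no filter) and 376 to 6919 over arrays left out (376 without long-term replicate 4, 3027 without long-term replicate 3). The higher and lower calls in short-term against control were 2348 and 6882, but 4487 and 3045 with a common trimmed mean, 3525 and 4212 with a common 75th percentile and 3180 and 4139 with quantile normalization. In long-term against short-term they were 7354 and 2178, against 2753 and 4248 with a trimmed mean. Changes that were not called turned sign as follows. In long-term against control these were Myh1 1377720_x_at (0.026 with no filter, 0.0026 with lead probe sets), Myh2 (-0.13 without controls 3 and 4) and Myh7 1386993_at (-0.025, quantile). In long-term against short-term, with no filter, Myh2 was 0.16 and Myh7 1386993_at 0.16, and Myh7 1367928_at was -0.10 (quantile). In short-term against control Myh1 1377114_at was -0.0087 (16 added), -0.16 (no filter) and -0.16 (without controls 3 and 4), Myh2 -0.056 (without controls 3 and 4), and the 2 Myh7 probe sets -0.13 and -0.064 (no filter). Slopes with no filter were 0.064 (Myh2), 0.018 and 0.044 (Myh7), and 0.011 for Myh2 with 16 added. Leaving out single arrays gave, in long-term against control, Myh1 -0.088 to 0.14 (1377719_a_at), -0.098 to 0.064 (1377720_x_at), -0.0100 to 0.16 (1383161_a_at) and -0.0014 to 0.23 (1383162_at), Myh4 -0.77 to 0.048 and Myh7 1386993_at -0.024 to 0.12. It gave Myh2 -0.23 to 0.029 in long-term against short-term, Myh1 1377114_at -0.10 to 0.21 and Myh7 1367928_at -0.073 to 0.23 in short-term against control, and slopes of -0.11 to 0.033 (Myh2), -0.34 to 0.023 (Myh3) and -0.14 to 0.024 (Myh7 1367928_at). The cause of these turns was not tested. Signals near the floor limit what can be said of Myh8 in controls.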

Other observations

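Of the other class II myosin heavy chains, 5 genes were tested, and 0 were called higher and 2 lower in short-term against control. Myh6, the alpha-cardiac chain, changed by -0.74 (SE 0.24, adjusted p = 0.00242 in limma) relative to the median probe set, and the call held under all 5 scalings. Myh10, a non-muscle chain, was called lower at -0.32 (SE 0.18, adjusted p = 0.0101), and this call did not hold under all of them. The other 3 had relative changes between 0.05 and 0.73 and were not called. Between long-term and short-term muscle Myh6 and Myh10 were called higher, by 1.06 and 0.39, and none of the 5 was called in long-term against control.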
